A study of Mus musculus with 21 samples.

Results

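Interferon-stimulated genes were followed as a set of 44 named genes in mouse CD8 T cells, out of 17516 gene symbols measured in all. The members were chosen by name, from genes known to respond to interferon, and all 44 were among the symbols. The choice was made with earlier results of these data known, so their counts beside the background are a description and not independent evidence. RNA was counted in single OT1 cells, CD8 T cells whose transgenic receptor recognises a peptide of ovalbumin, and each of 21 conditions had 1 library. One library held naive cells of day 0, which had received no treatment. All other cells had been activated on day 0 by beads coated with anti-CD3 and anti-CD28. Of these, 2 libraries held cells kept without added cytokine, sampled on days 3 and 5, and 18 held cells grown with IL-2, IL-15 or IL-2v, a mutant of IL-2, at a dose of 5 or 50 IU/mL until day 3, 5 or 10. No interferon is named as a treatment of any group. The treatment labels of 6 libraries name other interleukins than their titles (interleukin-3 for 50 IU/mL IL-2 and interleukin-16 for 50 IU/mL IL-15), and the titles were followed. One protocol text describes cells grown in culture and another describes T cells sorted from tumours, and which applies to a library was not resolved. With 1 library per condition there are no replicates of a condition. No difference between conditions was tested and no p-value was computed.

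Interferons are secreted proteins that alert cells to infection. Type I interferons act through the receptor chains IFNAR1 and IFNAR2, and type II interferon (IFN-gamma, made by activated T cells themselves) acts through IFNGR1 and IFNGR2. JAK kinases at these receptors phosphorylate STAT proteins. STAT2 and IRF9 are parts of the complex ISGF3, which binds the interferon-stimulated response element (ISRE), while STAT proteins activated by IFN-gamma bind the gamma-activated site (GAS). IRF1, itself a target, binds elements that resemble the ISRE. The products hold back viral RNA and proteins, disrupt the vacuoles of parasites and feed back on the pathway. Naive T cells carry a basal level of this programme, which in mice depends on tonic interferon.

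Promoter sequence was available for 33 of the 44 members, from RefSeq with build GRCm38.p6, as windows from 250 bases before to 50 bases after the transcription start. The ISRE was searched on both strands as TTTCNNTTTC and the GAS as TTCNNNGAA. Matches of the motifs may overlap. The ISRE letters occurred in a window of 21 of the 33 members (63.6%) and of 1079 of 27025 symbols in all (3.99%). GAS letters occurred in 8 of the 33 (24.2%) and in 2582 of all symbols (9.55%). By role, the ISRE letters were in 6 of 7 GTPases, 9 of 14 antiviral effectors, 2 of 4 Schlafen genes and 1 of 4 ISGF3 and IRF factors with a promoter.

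The 150 bases before the start of 7 members that the results turn on are shown 5′ to 3′ on the strand of the gene, with the matched letters in capitals. Starts are those of RefSeq, and where a gene has several windows the one with the most matches is shown. In the annotation used for gene positions, the window of Irgm1 lies within the gene (chr11:48861968-48871683). The windows of Gbp2 and Ifit1 run past the starts in that annotation, 142620602 and 34640871. Isg15 (chr4:156200819-156200968, minus strand) has 3 overlapping ISRE matches, whose first bases lie at −78, −72 and −66 from the start. Ifit1 (chr19:34640739-34640888, plus strand) has separate matches at −104 and −85.
Isg15: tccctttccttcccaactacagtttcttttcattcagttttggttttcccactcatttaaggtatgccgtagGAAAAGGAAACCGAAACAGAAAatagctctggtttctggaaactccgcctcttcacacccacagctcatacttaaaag
Ifit1: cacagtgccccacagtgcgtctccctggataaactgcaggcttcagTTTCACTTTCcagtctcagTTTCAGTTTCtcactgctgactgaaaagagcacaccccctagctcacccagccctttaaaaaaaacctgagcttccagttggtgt
The GTPase genes Igtp (chr11:58199406-58199555, plus strand), Irgm1 (chr11:48871421-48871570, minus strand) and Gbp2 (chr3:142620513-142620662, plus strand) have their matches nearer the start. Igtp holds a GAS at −45 beside its ISRE at −34, Irgm1 holds overlapping ISRE matches at −30 and −24, and Gbp2 holds an ISRE at −59.
Igtp: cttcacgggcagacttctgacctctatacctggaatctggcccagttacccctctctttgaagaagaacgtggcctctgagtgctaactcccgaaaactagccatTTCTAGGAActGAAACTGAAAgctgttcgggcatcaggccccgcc
Irgm1: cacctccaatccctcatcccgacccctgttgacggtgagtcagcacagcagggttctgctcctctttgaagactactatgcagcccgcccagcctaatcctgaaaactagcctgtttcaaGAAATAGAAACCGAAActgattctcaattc
Gbp2: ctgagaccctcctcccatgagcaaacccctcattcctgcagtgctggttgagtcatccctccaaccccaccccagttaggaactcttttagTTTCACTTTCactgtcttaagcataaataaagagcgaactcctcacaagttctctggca
Irf1 (chr11:53769864-53770013, plus strand) has a GAS at −90 and no ISRE letters. Slfn2 (chr11:83064962-83065111, plus strand) has neither, which says only that these letters are not in its window.
Irf1: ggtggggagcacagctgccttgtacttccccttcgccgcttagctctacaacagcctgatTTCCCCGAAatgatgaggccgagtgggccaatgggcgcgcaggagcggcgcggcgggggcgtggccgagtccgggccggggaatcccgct
Slfn2: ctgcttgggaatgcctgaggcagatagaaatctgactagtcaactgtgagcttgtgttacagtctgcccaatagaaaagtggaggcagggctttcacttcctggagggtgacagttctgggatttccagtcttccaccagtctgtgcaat

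After filters on cells, 3250 to 7105 cells per library remained, with 10589950 to 32648496 unique molecular identifiers (UMIs, tags that each mark 1 captured RNA molecule) and a median of 3016 to 5065 UMIs per cell. The library of day 5 at 50 IU/mL IL-2 was the shallowest. Levels are given as counts scaled to an equal library total (CPM), and their intervals cover counting error only. The T cell marker Cd3d was seen in 93.0% to 99.5% of cells per library, Cd3e in 72.0% to 92.8% and Cd3g in 78.9% to 97.2%. Cd8a was seen in 37.0% to 74.2%, Cd8b1 in 54.5% to 92.0% and Trac in 56.4% to 78.6%. Of the B cell markers reported here, Ms4a1 reached at most 0.0541 CPM and Cd79a 1.15 CPM, while Cd79b reached 17.1 CPM, with a UMI in up to 7.45% of cells. Of the myeloid markers, Lyz2 and Csf1r stayed under 1 CPM, Tyrobp reached 1.8 and Itgam 4.54 CPM, and Cd68 reached 14.9 CPM on day 10 with 50 IU/mL IL-2, with a UMI in 7.39% of cells. Cd4 reached at most 4.39 CPM. Fcer1g, a receptor chain that myeloid cells and some activated T cells carry, was highest in that same library, at 113 CPM. It had a UMI in up to 17.7% of cells. Of the plasmacytoid dendritic cell markers, Tcf4 and Irf8 were also highest there, at 30.3 and 279 CPM. Ccr9 was highest in naive cells, at 148 CPM, and the member Bst2 on day 10 with 50 IU/mL IL-2v, at 258 CPM. The part of such cells in the levels of the members was not tested. Pairs of libraries shared 1 to 19 cell barcodes.

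Across the 21 libraries, the summed level of all 44 members was lowest, at 1165 CPM, on day 3 with 50 IU/mL IL-2 and highest, at 4960.0 CPM, in cells of day 5 without cytokine. Naive cells stood at 3156 CPM. The mean over libraries reached 20 CPM for 31 members and 50 CPM for 17, while 13 members stayed below 20 CPM. Cells of day 3 at 50 IU/mL IL-2 were lowest for 15 members, and those of day 5 without cytokine highest for 14. Naive cells were highest for 11 members, and cells of day 10 at 50 IU/mL IL-2v for 8. The same counts over all genes were not made, so these describe the members only. Roles differed in where they were high. The summed GTPases, most of which respond strongly to IFN-gamma, were 583 CPM in naive cells, 1675 CPM on day 5 without cytokine and 549 CPM on day 10 with 50 IU/mL IL-2v. The summed IFIT, OAS and other antiviral effectors were 1428, 1617 and 1768 CPM in the same libraries. Ifi27l2a alone gave 577, 675 and 880.0 CPM of the effector sums.

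**Figure D1:**
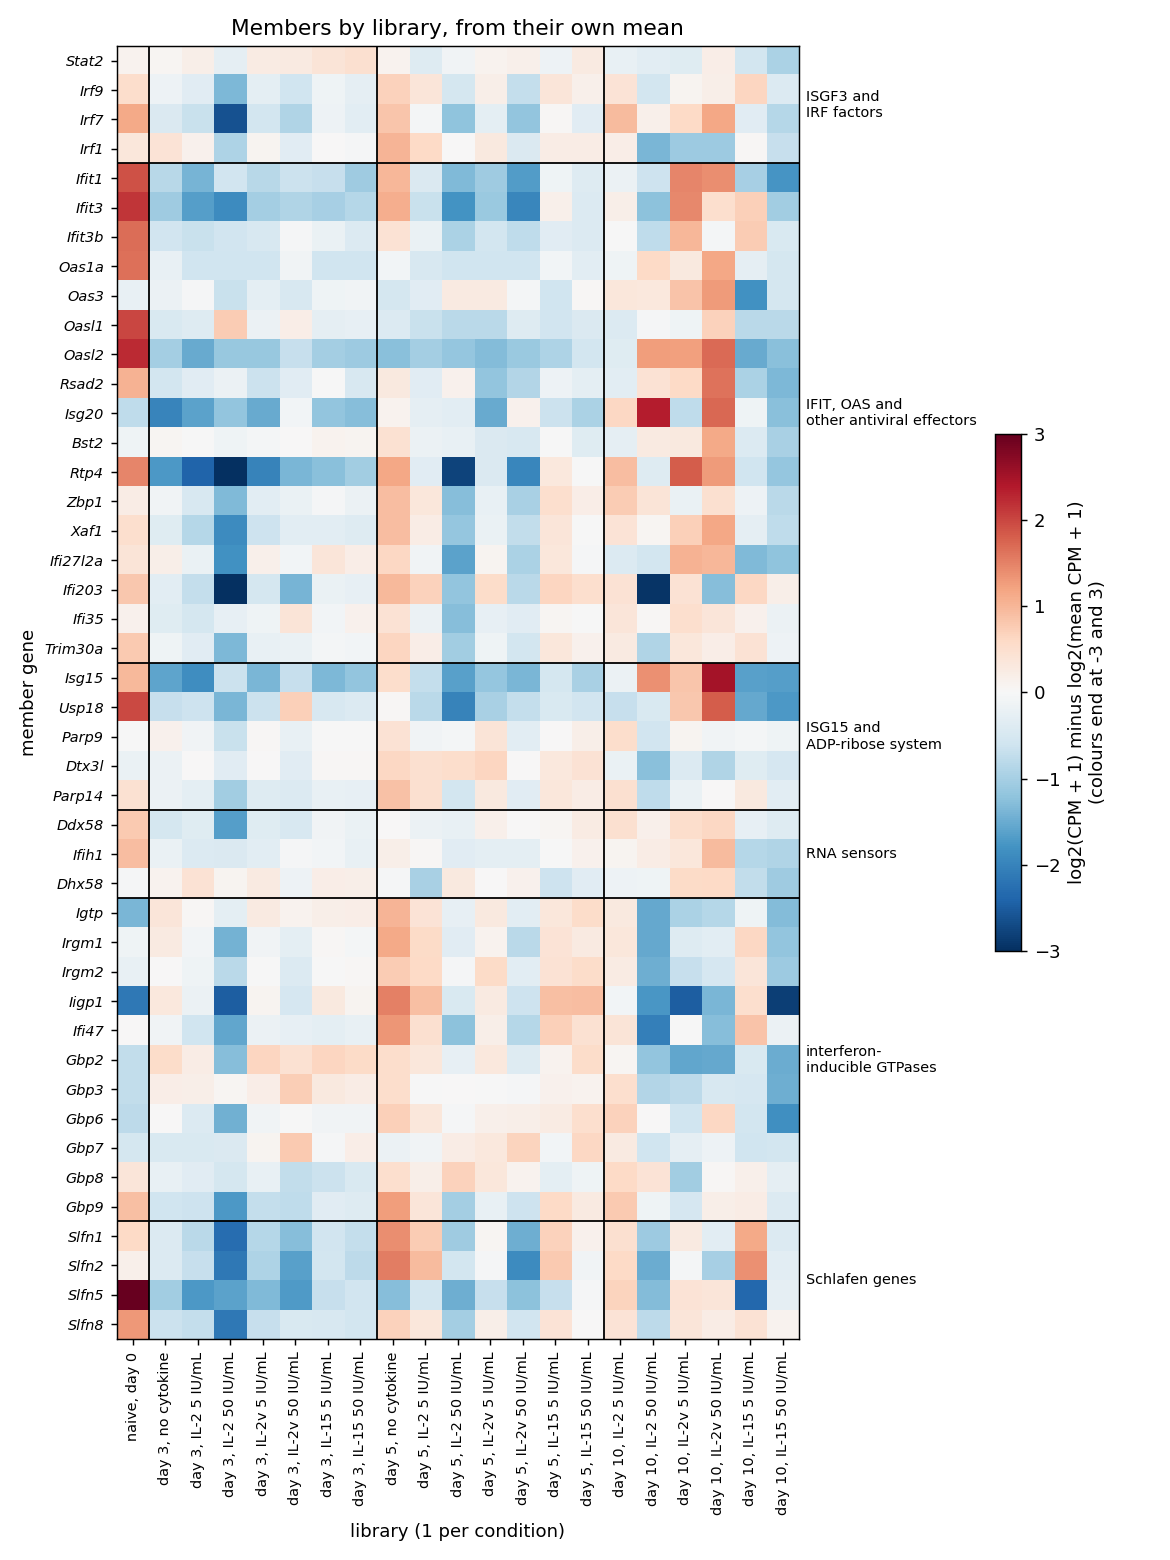
Level of each of the 44 members (rows, by role) in each of the 21 libraries (columns, with lines between days), as log2(CPM + 1) minus log2 of the member's mean CPM + 1. The column of day 3 with 50 IU/mL IL-2 is low over most roles, the GTPases are high on day 5 without cytokine, and Isg15, Usp18 and Oasl2 are high in naive cells and on day 10 with 50 IU/mL IL-2v.

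At 50 IU/mL IL-2, levels were lower than at 5 IU/mL for the interferon regulatory factors Irf7 and Irf1, for 4 antiviral effectors, 5 GTPases and 3 Schlafen genes. A gene entered a comparison (is called tested here, with no significance test) where its mean over the libraries of either arm reached 20 CPM, and it was called where the sign was the same on all 3 days and the median of the log2 differences was 1 or more in size, on the log2(CPM + 1) scale, which understates the change of low genes. Of 32 members tested, 15 were called lower at 50 IU/mL and 0 higher. Among the 5879 genes tested in all, 2.7% were called lower and 4.29% higher. Regardless of size, 21 members were lower and 0 higher on all 3 days, against 20.9% and 21.8% of all genes. The median log2 difference was −0.91 over the members tested and 0.03 over all genes tested. Over all 44 members without the expression filter, 17 were called lower, the median was −0.70, and 2.27% of 16296 genes were called lower. Counting 1 day at a time, 16, 14 and 16 of the 32 members were at least 2-fold lower on days 3, 5 and 10, against 2.33%, 3.04% and 14.7% of all genes. The median over all genes was itself −0.29 on day 10. With library totals that leave out ribosomal protein and mitochondrial genes, 17 members were called lower and the split over all genes moved from 252 higher and 159 lower to 275 and 268. With a pseudocount of 10 CPM in place of 1, 8 members and 1.75% of all genes were called lower. Of the 15, Irf7, Xaf1, Gbp9 and Slfn8 passed the filter only through the 5 IU/mL libraries, where they are high. With a filter that no arm sets alone, a mean of 20 CPM over all 21 libraries, the same 15 members of 31 were called lower, against 2.69% of 5495 genes. That filter was chosen after seeing the data.

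Of the 4 ISGF3 and IRF factors tested, Irf7 and Irf1 were called lower. Irf7, the factor that amplifies type I interferon production, stood at 14.1 and 2.91 CPM on day 3, 22.2 and 9.35 CPM on day 5 and 45.5 and 25.9 CPM on day 10 with 5 and 50 IU/mL IL-2, and its median log2 difference was −1.16 (−1.95 to −0.79 over the days). The 50 IU/mL library was the lower of the pair on each day, while the doses overlapped across days. Irf1 stood at 100.4 and 47.9 CPM on day 3, 140.0 and 93 CPM on day 5 and 106 and 34.8 CPM on day 10, a median of −1.05. Each library at 50 IU/mL lay below each at 5 IU/mL, with 93 and 100.4 CPM as the closest. Irf9, the DNA-binding part of ISGF3, was lower on all days but had a median of −0.97, just inside the limit, and Stat2 had −0.08.

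Of the 9 antiviral effectors tested, 4 were called lower. Ifi203, a p200 family member related to DNA sensors, showed the lowest median of any member: it stood at 95.4 and 18.1 CPM on day 3, 255 and 68.8 CPM on day 5 and 211 and 19.5 CPM on day 10 with 5 and 50 IU/mL, a median log2 difference of −2.33. Every library with 50 IU/mL IL-2 lay below every library with 5 IU/mL. Ifi27l2a, a small interferon-induced membrane protein, stood at 382 and 124 CPM on day 3, 409 and 145 CPM on day 5 and 332 and 299 CPM on day 10, a median of −1.49. On day 10 its doses differed by only −0.15. Trim30a, a ubiquitin ligase that damps inflammatory signalling (−1.16, range −1.23 to −1.01), and Xaf1, an apoptosis-promoting factor (−1.03, range −1.39 to −0.34), were the other 2. Isg20, an exonuclease of viral RNA, went the other way at the last time point: it stood at 9.6 and 13.1 CPM on day 3, 25.8 and 25 CPM on day 5 and 49.1 and 165 CPM on day 10. Its median of 0.42 was not called.

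The role that joins the ISG15 and ADP-ribose genes was split. Parp14, an ADP-ribosyltransferase, was called lower (−1.01, range −1.24 to −0.75), while its relative Parp9 (−0.57) and Dtx3l, the ubiquitin ligase that partners with PARP9 (−0.37), were not called. Isg15, a ubiquitin-like modifier, stood at 6.6 and 16.7 CPM on day 3, 15.8 and 8.03 CPM on day 5 and 23.6 and 70.4 CPM on day 10. It was higher at 50 IU/mL on days 3 and 10 and lower on day 5, and its median of 1.22 had no single direction. With day 5 left out, Isg15 and Isg20 were both called higher at 50 IU/mL IL-2. Ddx58, the RIG-I sensor of viral RNA and the only sensor tested, had a median of −0.33, with −1.29 on day 3 alone.

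Of the 11 GTPases, enzymes that attack the membranes of vacuoles that hold microbes, 5 were called lower. Iigp1 stood at 90.1 and 17.4 CPM on day 3, 189.9 and 74.4 CPM on day 5 and 96.9 and 29.6 CPM on day 10 with 5 and 50 IU/mL IL-2, a median of −1.68. Ifi47 stood at 108 and 54.9 CPM on day 3, 228 and 68.7 CPM on day 5 and 213 and 38.6 CPM on day 10, a median of −1.72. For both, every library at 50 IU/mL lay below every library at 5 IU/mL. Irgm1, a regulator of the other IRG enzymes (−1.35), Gbp2 (−1.26) and Gbp9 (−1.10) completed the group. Igtp (−0.66) and Irgm2 (−0.67) were lower on all 3 days without reaching the limit. Gbp7 (0.02), Gbp3 (−0.13) and Gbp8 (−0.17) had medians near 0, so its members differed in size and sign.

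All 3 Schlafen genes tested were called lower. Slfn2, which T cells need to stay quiescent and alive, stood at 135 and 48.6 CPM on day 3, 418 and 149 CPM on day 5 and 327 and 77.1 CPM on day 10, a median of −1.49 (−2.07 to −1.45). Slfn1, which slows T cell growth when overexpressed, stood at 52.4 and 18.2 CPM on day 3, 159.6 and 44.2 CPM on day 5 and 129.5 and 42.9 CPM on day 10, a median of −1.57. Slfn8 had −1.36. The share of cells with a UMI of the proliferation genes Mki67 or Top2a, at 2000 UMIs per cell, was 55.8% and 64.1% on day 3, 12.4% and 47.2% on day 5 and 11.4% and 8.54% on day 10 at the low and high dose. In cells with no UMI of either gene at their full depth, 16 of 31 members were called lower, the 15 above and Irf9, with a median of −1.05, against 3.08% of 5687 genes and a median of 0.02. Among the 15 members, 11 had a promoter sequence and 5 of these held ISRE letters, against 9 of 13 among the members tested and not called.

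The other cytokines gave fewer calls. With IL-2v, 32 members were tested, Isg20 was called higher and Ifi203 and Ifi47 lower, against 2.38% of 5913 genes called higher and 0.626% lower. Isg20 stood at 10.3 and 29.7 CPM on day 3, 10.3 and 34.6 CPM on day 5 and 17.9 and 106 CPM on day 10 with 5 and 50 IU/mL IL-2v, a median log2 difference of 1.66. The ranges of the doses did not overlap. Isg20 passed the filter only through the 50 IU/mL libraries, where it is high, so its values are a description. Ifi203 stood at 108 and 59.1 CPM on day 3, 232 and 88.6 CPM on day 5 and 212 and 64.4 CPM on day 10, a median of −1.38, and again the doses did not overlap. Without day 3, 5 members were called lower with IL-2v, against 1.43% of all genes, and without day 5, 1 was, against 0.832%. On day 5 alone, 6 members were at least 2-fold lower at 50 IU/mL IL-2v and 1 higher, against 1.1% and 4.35% of all genes. On day 3, 0 were lower and 1 higher, against 0.693% and 2.27%. On day 10, 2 were lower and 5 higher, against 6.11% and 4.55%. The median on day 10 was 0.09 over the members tested and −0.12 over all genes. Regardless of size, 8 members were lower and 4 higher on all 3 days with IL-2v, against 15.8% and 21.3% of all genes. With IL-15, none of 30 members was called in either direction, against 0.869% higher and 0.181% lower among 5523 genes. Regardless of size, 15 of the 30 were lower and 2 higher at 50 IU/mL IL-15 on all 3 days, against 16.6% and 20.5% of all genes. The IL-15 doses differed on day 10, where 11 members were at least 2-fold lower at 50 IU/mL, against 1.94% of all genes. There Iigp1 stood at 146 CPM with 5 IU/mL and 13.5 CPM with 50 IU/mL, after 189.7 and 193 CPM on day 5. Slfn2 stood at 567 and 175 CPM. The median over the members tested was −0.19 with IL-2v and −0.13 with IL-15. The differences between these dose effects were not tested.

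**Figure D2:**
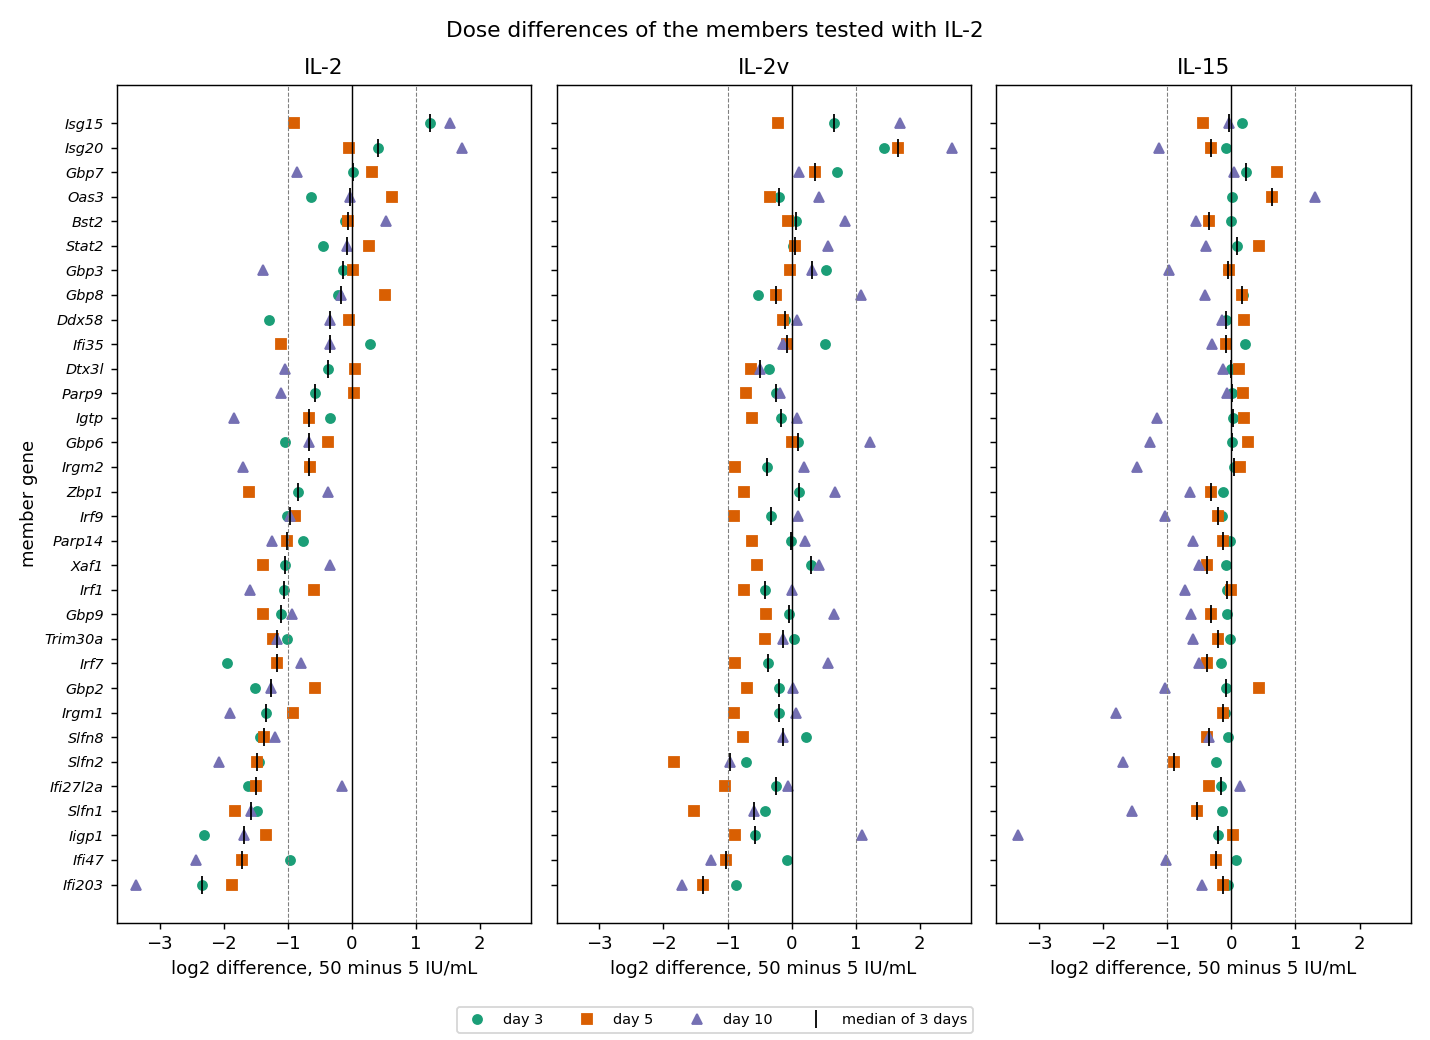
Log2 differences between 50 and 5 IU/mL (horizontal axis, log2(CPM + 1) scale) of the 32 members tested with IL-2, ordered by their IL-2 median, with 1 panel per cytokine. Symbols are days, black bars the median of the 3 days and dashed lines mark a 2-fold difference. Most points lie left of 0 with IL-2, and in the IL-15 panel most of the points beyond 2-fold lower are of day 10.

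Between cytokines at equal day and dose, few members met the rule of 1 direction in all 6 pairs. For IL-2v against IL-2, Ifi27l2a alone was called higher of 32 members tested and none lower, against 1.04% and 0.274% of 5839 genes. Its level with IL-2v exceeded that with IL-2 in all 6 pairs, by a median of 1.05 (0.19 to 1.74). On day 10 it stood at 914 and 880.0 CPM with IL-2v and 332 and 299 CPM with IL-2. The call was lost with trimmed-mean scaling, with the mean of single-cell CPM and without day 10, where 0 members were called. For IL-15 against IL-2, none of 30 members was called, against 0.49% higher and 1.7% lower among 5718 genes. For IL-2v against IL-15, none of 32 was called, against 2.48% higher and 0.585% lower among 5810 genes.

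The single pairs differed with the dose and the day. On day 3 at 50 IU/mL, 17 members were at least 2-fold higher with IL-2v than with IL-2, against 1.27% of all genes, and 16 were higher with IL-15 than with IL-2, against 2.62%. Both use the same IL-2 library, which had the lowest member sum, and comparisons of cytokines and of doses share libraries throughout. Iigp1 was 17.4 CPM with IL-2, 72.1 CPM with IL-2v and 108 CPM with IL-15 in that set. On day 5 at 50 IU/mL, 11 members were higher with IL-15 than with IL-2 (4.23% of all genes), and 8 were lower with IL-2v than with IL-15 (1.74%). Slfn2 was 149, 58.2 and 202 CPM with IL-2, IL-2v and IL-15 there. On day 10 at 50 IU/mL, the counts favoured IL-2v: 8 members were higher than with IL-2 (4.3%) and 12 higher than with IL-15 (7.56%). IL-15 against IL-2 gave 3 of 30 higher, near the background of 9.72%, and 6 of 30 lower, against 9.23%. At 5 IU/mL on day 10, 8 members were lower with IL-2v than with IL-2 (7.19%).

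The first step of culture was read from bead-activated cells of day 3 that had no cytokine, compared with naive cells. Over all 44 members without the expression filter, 19 were at least 2-fold lower after activation and 3 higher, against 6.76% and 10.2% of 15415 genes. With the filter on the mean over all 21 libraries, 8 of 31 members were lower and 3 higher, against 5.77% and 11% of 5495 genes. With the filter on either arm, 11 of 35 were lower and 3 higher, against 8.31% and 11.1% of 6171 genes. Of those 11, Isg15, Ifit1, Ifit3, Rtp4, Irf7, Gbp9, Slfn5 and Slfn8 passed it only through the naive library, where they are high, so their values are a description. The 11 were 4 antiviral effectors, 3 Schlafen genes and 1 member of each other role. Isg15 went from 53.2 to 8.31 CPM, Ifit1, which binds viral RNA ends, from 37.6 to 4.81 CPM, and Rtp4 from 49.9 to 4.63 CPM. Slfn5 showed the largest difference of the 35, from 63.8 to 2.83 CPM, a log2 difference of −4.08. It stayed at or under 11.6 CPM in all 20 activated libraries, so the naive library alone was high. Irf7 (−1.59), Ifit3 (−3.22), Ifi203 (−1.13), Ddx58 (−1.30), Gbp9 (−1.51), Slfn8 (−1.95) and Slfn1, which went from 141 to 69.9 CPM, were the others. The 3 higher members were GTPases. Iigp1 went from 22.3 to 127 CPM, Igtp from 72.2 to 241 CPM and Gbp2 from 42 to 105 CPM. Cycling cells made up 1.83% of the naive and 51.1% of the day 3 cells. Among cells in which neither Mki67 nor Top2a was seen, 5 of 35 members were higher and 8 lower, against 7.86% and 11.1% of 5925 genes.

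Without cytokine, many members were higher on day 5 than on day 3, among them Slfn2, Ifi47 and Isg15. Over all 44 members without the expression filter, 17 were at least 2-fold higher and none lower, against 2.38% and 8.69% of 15017 genes, and the median log2 difference was 0.79, against −0.09. With the filter on the mean over all 21 libraries, 13 of 31 members were higher and none lower, against 2.78% and 8.68% of 5495 genes. With the filter on either arm, 14 of 33 were higher and none lower, against 3.61% and 9.47% of 5785 genes. Of those 14, Isg15, Isg20, Rtp4, Irf7, Gbp9 and Slfn8 passed it only through the day 5 library, where they are high, so their values are a description. Slfn2 went from 164 to 635 CPM, Ifi47 from 152 to 408 CPM and Isg15 from 8.31 to 38.7 CPM. On day 3 all 3 had been below their naive levels. The others were Irf7 (1.27), Isg20 (2.07), Rtp4 (2.88), Zbp1 (1.02), Xaf1 (1.29), Ifi203 (1.30), Parp14 (1.07), Iigp1 (1.19), Gbp9 (1.86), Slfn1 (1.79) and Slfn8 (1.33). They span every role but the RNA sensors. This comparison shares the day 3 library with the one against naive cells. The share of cycling cells was 51.1% on day 3 and 8.3% on day 5, and among cells in which neither Mki67 nor Top2a was seen 10 of 34 members were called higher, against 3.7% of 5490 genes.

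Relative to cells kept without cytokine, 10 of 27 members were lower in all 6 cytokine libraries of day 3 and 0 higher in all 6, against 8.35% and 34.1% of all genes. None of the 27 was called in either direction, against 0.329% called higher and 0.139% lower among 5772 genes. The library with 50 IU/mL IL-2 alone had 15 members at least 2-fold lower, against 2.88% of all genes. Ifi203 was 125 CPM without cytokine and 18.1 CPM in that library. On day 5, 8 of 33 members were called lower with cytokine and none higher, against 1.67% lower and 6.06% higher among 5756 genes. They were Irf7 (−1.15), Rtp4 (−1.56), Xaf1 (−1.04), Isg15 (−1.58), Gbp9 (−1.23), Slfn1 (−1.29), Slfn2 (−1.62) and Ifi47, just past the limit. Ifi47 was 408 CPM without cytokine and between 68.7 and 267 CPM in the 6 cytokine libraries, all below it. The 6 pairs of a day share 1 library without cytokine, so they are not independent. Without the shallow library of day 5 at 50 IU/mL IL-2, 5 members were called lower, against 1.52% of all genes, and with a pseudocount of 10 CPM, 4, against 1.01%. Irf7, Rtp4 and Isg15 passed the filter only through the library without cytokine, and with the filter on the mean over all 21 libraries 7 of 31 members were called lower, against 1.15% of 5495 genes.

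Between days in culture with cytokine, few members were called. For day 5 against day 3, 8 of 30 members were higher and 2 lower in all 6 pairs, against 12.5% and 27% of all genes. None was called, against 0.829% higher and 2.22% lower among 5912 genes. The median was 0.43 over the members and −0.098 over all genes. At least 2-fold higher with 5 and 50 IU/mL were 8 and 10 members with IL-2, against 1.91% and 2.79% of all genes. The counts were 1 and 0 with IL-2v (1.35% and 1.91%) and 3 and 0 with IL-15 (0.863% and 0.761%). With 50 IU/mL IL-2v, 20 of the 30 were lower regardless of size, against 47.1%. For day 10 against day 5, Iigp1 (−1.13) and Gbp2 (−1.05) were called lower of 32 members tested and none higher, against 1.62% and 0.0705% of 5676 genes. In all 6 pairs of that step, 7 were lower and 1 higher, against 10.1% and 4.72% of all genes. The count of lower calls was 1 with trimmed-mean scaling (1.19% of all genes), 0 with a pseudocount of 10 CPM (0.899%), 1 without the shallow library (1.19%) and 4 among cells in which neither Mki67 nor Top2a was seen (1.22%). Over the 7 libraries of day 3, the 7 of day 5 and the 6 of day 10, Gbp2 lay between 28.5 and 113, 54.2 and 104, and 23.4 and 74.4 CPM. The days overlapped. At 50 IU/mL the late step was counted for each cytokine over the 32 members. With IL-2, 8 were at least 2-fold higher on day 10 and 7 lower, against 4.76% and 17.9% of all genes. With IL-2v, 10 were higher and 1 lower, against 1.43% and 10.2%. With IL-15, 0 were higher and 10 lower, against 0.758% and 5.06%. At 5 IU/mL, 2 were higher and 0 lower with IL-2, against 4.26% and 1.9% of all genes. With 5 IU/mL IL-2v, 2 were higher and 7 lower, against 1.6% and 4.42%, and with 5 IU/mL IL-15, 0 were higher and 3 lower, against 0.828% and 5.07%. The differences between these steps were not tested.

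**Figure D3:**
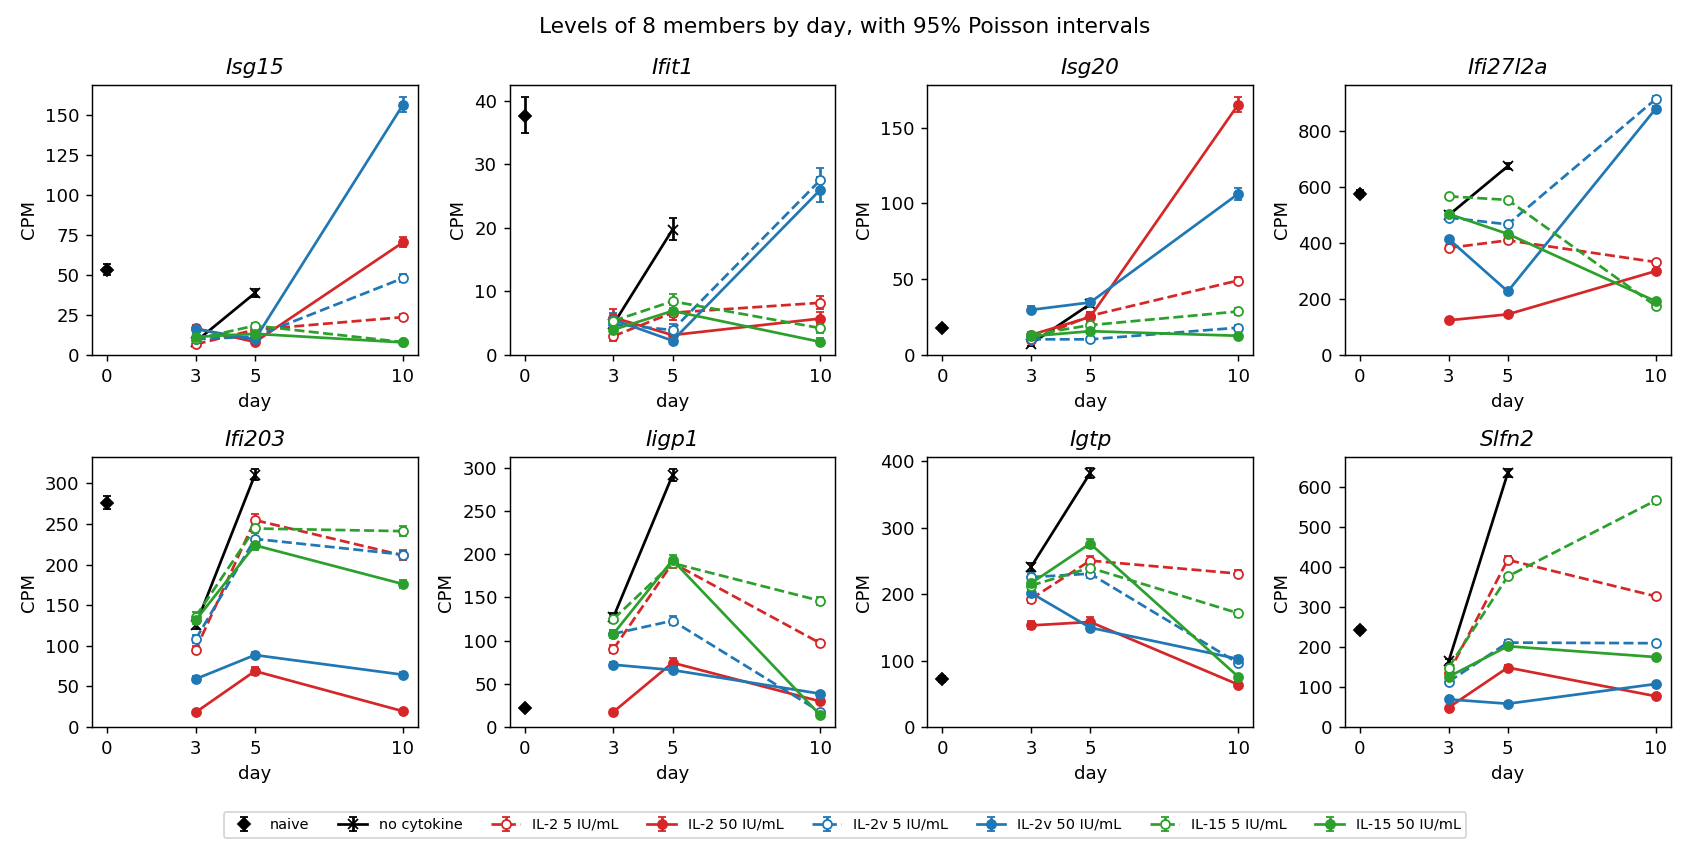
Levels in CPM (vertical axes, from 0) of 8 members by day (horizontal axes), with exact 95% Poisson intervals that cover counting error only. Colours are cytokines, open symbols 5 IU/mL and filled symbols 50 IU/mL, with naive cells and cells without cytokine in black. Isg15 and Isg20 are high on day 10 with 50 IU/mL IL-2v and IL-2, and Iigp1, Igtp and Slfn2 are high on day 5 without cytokine.

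The library of day 10 at 50 IU/mL IL-2v was the highest of the 21 for 8 members: Irf7, Oas3, Rsad2, Bst2, Xaf1, Isg15, Ifih1 and Dhx58. Other effectors, among them Ifit1, Ifit3 and Oasl2, were highest in naive cells. For the day 10 library, the share of all genes that were highest in it was not counted. Isg15 stood at 157 CPM there, against 6.6, 13.2 and 157 CPM as the lowest, median and highest of all 21 libraries. It was followed by 70.4 CPM on day 10 with 50 IU/mL IL-2, by naive cells and by 48 CPM on day 10 with 5 IU/mL IL-2v, and no other library passed 38.7 CPM. Bst2, the tether that holds budding viruses at the cell surface, stood at 258 CPM against a median of 113. Oas3, which makes the signal for RNA decay, stood at 68.5 against 25.2 CPM, and Usp18, which removes ISG15 and blocks the receptor, at 15.8 against 2.07 CPM. Several GTPases were low in the same library: Iigp1 stood at 38.5, Gbp2 at 23.7 and Ifi47 at 67 CPM, under their medians of 96.9, 77.1 and 143 CPM. Isg20 was highest on day 10 with 50 IU/mL IL-2, at 165 CPM, followed by 106 CPM with 50 IU/mL IL-2v, while no other library passed 49.1 CPM. Irf8, a factor that B cells, dendritic cells and activated T cells express, was also highest in these 2 libraries, at 279 and 159 CPM, and Fcer1g stood at 113 and 44.3 CPM. Their part in the levels of the members was not tested.

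For some of the other members with a mean of at least 50 CPM, the lowest, median and highest levels follow. Dtx3l had 41.7, 101 and 158 CPM, lowest on day 10 with 50 IU/mL IL-2. Zbp1, a sensor of left-handed nucleic acid that triggers cell death, had 22.2, 51.6 and 109.6 CPM, and Ifi35 had 20.5, 50.5 and 72.6 CPM. The lowest library of Zbp1 was day 3 and that of Ifi35 day 5, both with 50 IU/mL IL-2. Gbp7 had 78.4, 111 and 206 CPM, and Igtp had 63.9, 202 and 382 CPM. Gbp7 was highest on day 3 with 50 IU/mL IL-2v, followed by 191 CPM on day 5 with the same treatment, while Igtp was highest on day 5 without cytokine. At the low end, Oas1a, Oasl1, Oasl2 and Ifit3b had means under 2 CPM, with their highest levels in naive cells (3.79, 6.01, 12.5 and 5.2 CPM). Each had at least 1 library at 0, where a count of 0 allows up to 0.0919 to 0.283 CPM depending on the library's depth. Rsad2 (viperin), which makes an antiviral nucleotide, stayed between 0.816 and 13.4 CPM. Ifih1 and Dhx58, sensors of viral RNA, lay between 2.48 and 11.5 CPM and between 4.02 and 15.1 CPM. All 3 were highest on day 10 with 50 IU/mL IL-2v, though for Ifih1 naive cells (11.3 CPM) were within counting error of it.

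The rest of the pathway was read from lists of ligands, receptors, signalling proteins, inhibitors and further targets. Ifng, the gene of IFN-gamma, was the only ligand among the symbols and stayed at or under 6.93 CPM. The type I interferon genes on the list were not analysed here. Of the receptor chains, Ifnar1 lay between 28.5 and 116 CPM, and Ifngr1 went from 94.7 CPM in naive cells to 354 CPM on day 3 without cytokine. Ifngr2 went the opposite way, from 21.6 to 7.91 CPM, so the 2 chains of this receptor did not move together. Ifnlr1, the chain for type III interferon, was at or under 0.327 CPM.

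For the IL-2 dose step, none of 3 receptor genes tested was called, and of the signalling genes reported here Irf8 was called higher. Irf8 stood at 99.9 and 111 CPM on day 3, 21.1 and 95.5 CPM on day 5 and 69.1 and 279 CPM on day 10 with 5 and 50 IU/mL IL-2, with log2 differences of 0.15 to 2.13 and the smallest on day 3. Of 6 inhibitors none was called. Socs1, which blocks JAK kinases, stood at 524 CPM on day 10 with 5 IU/mL IL-2 and at 71.9 CPM with 50 IU/mL. Of 23 further interferon targets tested, 7 were called lower and none higher: Sp100, Phf11b, Epsti1 and the p200 genes Ifi206, Ifi208, Ifi209 and Ifi213, which are relatives of Ifi203. Among the 5879 genes tested in all, 2.7% were called lower and 4.29% higher. The median over those 23 targets was −0.58, against 0.03 over all genes tested. How many of the 7 passed the filter only through the 5 IU/mL libraries was not counted, so these counts are a description. On day 3 with 50 IU/mL, Ifi206, Ifi208, Ifi209 and Ifi213 stood at 2.6, 1.64, 6.12 and 0.303 CPM, the lowest of all libraries for each.

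Levels per library do not show how the RNA is spread over cells, so each cell was thinned at random to 2000 UMIs and the members seen in it were counted. Of 28 members known to respond to type I interferon, at least 5 were seen in 14.5% (13.5% to 15.5%) of naive cells, 1.05% (0.729% to 1.45%) at 50 IU/mL IL-2 on day 3, 22.2% (21.1% to 23.2%) without cytokine on day 5, 22.8% (21.7% to 24%) at 50 IU/mL IL-2v on day 10 and 1.86% (1.55% to 2.22%) at 50 IU/mL IL-15 on day 10 (exact 95% intervals for counting error only). The cut lies in a continuous range. In naive cells, 246 cells stood at the cut and 551 just under it. Naive cells had the longest tail: at least 10 of the 28 were seen in 1.92% of cells and up to 23 in 1 cell, against 1.19% and 16 on day 10 with 50 IU/mL IL-2v and 0.533% and 14 on day 5 without cytokine. The variance of the number of the 28 seen per cell, divided by its mean, was 1.86 in naive cells, 1.59 on day 10 with 50 IU/mL IL-2, 1.52 on day 10 with 50 IU/mL IL-2v and 1.24 on day 5 without cytokine. On day 5 without cytokine a larger share of cells than among naive cells reached 5 members, and a smaller share reached 10. Cells under 2000 UMIs were left out, 57 to 393 per library, and without thinning the share with at least 5 members was 38.8% in naive cells, 8.61% on day 3 with 50 IU/mL IL-2, 54.6% on day 5 without cytokine, 62.4% on day 10 with 50 IU/mL IL-2v and 21.5% on day 10 with 50 IU/mL IL-15.

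**Figure D4:**
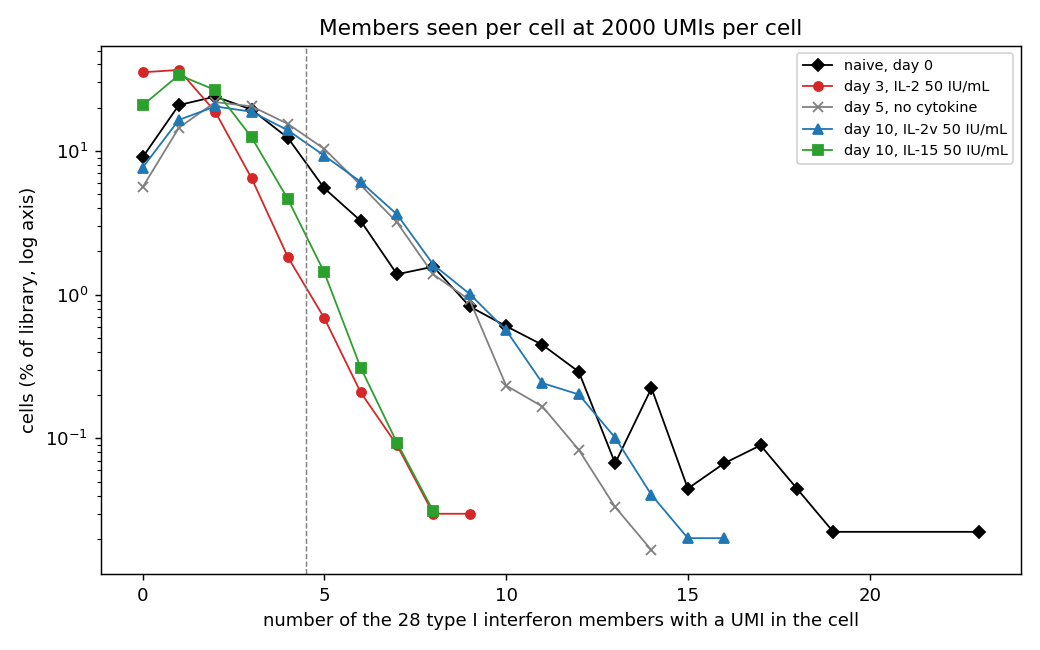
Share of cells (vertical axis, % of the library, log axis) by the number of the 28 type I interferon members with a UMI (horizontal axis), at 2000 UMIs per cell, in 5 libraries. The dashed line marks the cut of 5 members. Naive cells reach 23 members, and the libraries with 50 IU/mL IL-2 on day 3 and 50 IU/mL IL-15 on day 10 end at 9 and 8.

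Isg15 was seen in 7.29% (6.55% to 8.09%) of naive cells, 1.35% (1.02% to 1.77%) at 5 IU/mL IL-2 on day 3, 12% (11.1% to 13%) at 50 IU/mL IL-2 on day 10 and 23.6% (22.5% to 24.9%) at 50 IU/mL IL-2v on day 10. Without thinning these shares were 11.3%, 2.65%, 24% and 41%. No cell type known to lack these genes was in the libraries, so the share that free RNA can give was not measured. In naive cells, Ifit1 was seen in 26.7% (22% to 31.8%) of cells with an Isg15 UMI and 3.62% (3.07% to 4.23%) of the others. Igtp was seen in 24.2% (19.7% to 29.3%) of cells with an Isg15 UMI and 11.1% (10.1% to 12.1%) of the others, and Slfn2 in 42.6% (37.2% to 48.2%) of cells with an Isg15 UMI and 35.8% (34.3% to 37.2%) of the others. Cd3d, for comparison, was seen in 79.1% (74.3% to 83.4%) of cells with an Isg15 UMI and 83% (81.8% to 84.1%) of the others. These intervals cover counting error among the cells of 1 library only. Differences between cells with and without an Isg15 UMI were not tested. On day 10 with 50 IU/mL IL-2v, Ifit1 was seen in 11.6% (9.84% to 13.6%) of cells with an Isg15 UMI and 2.33% (1.87% to 2.86%) of the others. On day 10 with 50 IU/mL IL-2, where Isg15 and Isg20 were high, Ifit1 was seen in 4.62% (3.04% to 6.69%) of cells with an Isg15 UMI and 0.896% (0.632% to 1.23%) of the others. Cycling cells were 14.4% of the cells with at least 5 of the 28 members on day 10 with 50 IU/mL IL-2v and 18.3% of the rest.

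Some members are uncertain because their sequence recurs elsewhere. In build GRCm38, which is mm10, words of 90 bases from the last 1000 bases of the transcripts were compared. Gbp6 (chr5:105270702-105293698) shares 78.1% of its words with the predicted gene Gm43302 and 30.3% with Gbp10, Oas1a shares 48% with Oas1g, and Ifit3 shares 36.1% with its neighbour Ifit3b. Trim30a shares 11.8% with Trim30d. Values of these members may hold reads of the copy. On opposite strands, 16.8% of the exonic bases of Ifi35 overlap Gm11626, 9.4% of Parp9 overlap Dtx3l and 8% of Dtx3l overlap Parp9, and on the same strand 29% of Gbp6 overlap Gm43302, 13.9% of Rtp4 overlap Gm45338, 11.3% of Gbp7 overlap Gm43802, 8.01% of Igtp overlap Irgm2 and 4.39% of Irgm2 overlap Igtp. The use of strand in counting is not given in the sources used here. The remaining members called for the IL-2 dose step had at most 6.01% shared words with any gene.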

How the data were processed

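RNA of single cells was counted per gene in 21 libraries. The deposited files hold raw UMI counts per gene and cell, whole numbers with no normalization by the authors. The submitters' processing notes name Cell Ranger, Seurat 3.0.2 and 4.0.1 and mm10, with no role given. Cells needed 1000 UMIs, 500 genes and no more than 10% of UMIs from mitochondrial genes, which removed 2 barcodes; doublets were not called. Counts were summed per library and divided by the library total (CPM), with exact 95% Poisson intervals. Differences are on the log2(CPM + 1) scale; the rules for calls stand in the report. With 1 library per condition no test was run, and no model over several conditions was fitted. The named genes are the 44 members and listed pathway genes, and the members and lists were chosen with earlier results of these data known. The calls were tested on simulated data with counting noise only, which does not cover differences between libraries. Alternatives covered scaling (TMM, edgeR 4.0.16), pseudocount, filters, cell sets, days and depth. Python 3.11.15, pandas 2.3.3 and scipy 1.17.1 were used. Promoters are from RefSeq (GRCm38.p6). Results of 1 signalling gene and 1 marker are not reported here.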

Additional observations from a re-analysis of the deposited data

Results flagged for a closer look

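Isg20 differed in the direction of its dose difference between cytokines. From 5 to 50 IU/mL it was higher on all 3 days with IL-2v, by a median log2 difference of 1.66 (1.45 to 2.50), and lower on all 3 days with IL-15, by a median of −0.31 (−1.12 to −0.09). With IL-2v, Isg20 passed the filter only through the 50 IU/mL libraries, where it is high. The difference between the cytokines was not tested.

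Gbp6 was lower at 50 IU/mL on all 3 days with IL-2, by a median of −0.66 (−1.05 to −0.37), and higher on all 3 days with IL-2v, by a median of 0.09 (0.01 to 1.23). On 2 of the days with IL-2v the difference was under 0.1. Gbp6 shares sequence with Gm43302 and Gbp10. This difference was not tested either.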

How the results depend on the processing

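Of 279 alternative values for 30 results, 233 stayed within 1.5 times the count or within the interval of the share and 46 moved. The cause of the moves was not tested. A count of 0 in both settings was taken as unchanged, and many of the counts were 0. The 233 therefore say little about how stable the counts above 0 are. A limit of 5% mitochondrial UMIs and leaving out cells above 2 times the median UMIs moved none of 24 counts each, nor did a filter on the mean over all 21 libraries, chosen after seeing the data. Members called were as follows. The share of all genes called is not given beside these counts here, so they cannot be read against a background. With trimmed-mean (TMM) scaling: IL-2v against IL-2, 0 higher, IL-15 dose, 1 lower, day 5 against day 3, 1 higher, day 10 against day 5, 1 lower. With totals without ribosomal protein and mitochondrial genes: IL-15 against IL-2, 1 higher, day 5 against day 3, 1 higher, day 10 against day 5, 1 lower. With the mean of single-cell CPM: IL-2v against IL-2, 0 higher. With a pseudocount of 10 CPM: IL-2 dose, 8 lower, IL-2v dose, 1 lower, day 10 against day 5, 0 lower, cytokine against none on day 5, 4 lower. With no expression filter: IL-2v dose, 2 higher, day 3 without cytokine against naive, 19 lower. Among cells in which neither Mki67 nor Top2a was seen: day 10 against day 5, 4 lower, day 3 without cytokine against naive, 5 higher. Without day 3: IL-15 against IL-2, 1 higher, IL-2v against IL-15, 1 lower, IL-2v dose, 5 lower, IL-15 dose, 2 lower. Without day 5: IL-2v against IL-2, 2 higher, IL-15 against IL-2, 1 higher, IL-2 dose, 2 higher, IL-2v dose, 2 higher and 1 lower, IL-15 dose, 1 lower. Without day 10: IL-2v against IL-2, 0 higher, IL-15 against IL-2, 1 higher. Without the library of day 5 at 50 IU/mL IL-2, an alternative chosen after seeing the data: IL-2 dose, 2 higher, day 10 against day 5, 1 lower, cytokine against none on day 5, 5 lower.

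The shares of cells moved with depth and cut. The share with at least 5 members, at 1000 UMIs, without thinning and with a cut of 4, was 0.202%, 8.61% and 2.87% on day 3 with 50 IU/mL IL-2, 4.75%, 38.8% and 26.8% in naive cells, and 6.15%, 62.4% and 36.7% on day 10 with 50 IU/mL IL-2v. The share with an Isg15 UMI, at 1000 UMIs and without thinning, was 1.18% and 4.29%, 4.12% and 11.3%, and 13.7% and 41% in the same libraries.

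Each condition had 1 library, so a difference between conditions cannot be told apart from one between libraries, and counting intervals do not cover that. Depth limits the members under 2 CPM, where 1 UMI is worth 0.0306 to 0.0944 CPM. Libraries of equal day or dose were paired only for the sign and median of their differences, and no paired test was run.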
